A study of Rattus norvegicus with 8 samples.

Results

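The miR-21 hairpin gives 2 of the 620 entries of mature miRNAs counted in rat kidney: rno-miR-21, the main product, and rno-miR-21*, the product of its opposite arm. They were chosen by name, as every entry whose name starts with rno-miR-21 and is not followed by another digit, so that miR-210 and the like were left out. The 620 entries held 587 distinct names, since 33 names stood in both an upper- and a lower-case spelling with counts of their own, and neither miR-21 arm was among these. Kidneys of 8 male Big Blue transgenic rats on the Fisher 344 background were sequenced, with 1 small RNA library per rat. Big Blue rats carry a reporter transgene for mutation assays, and both groups carried it. The 4 AA-treated rats were given aristolochic acid (AA), a nephrotoxic and carcinogenic plant compound, as the sodium salt at 10.0 mg/kg by gavage in a volume of 4 ml/kg, and 4 rats given 0.9% sodium chloride were the controls, with dosing in both groups 5 times a week from an age of 6 weeks. All rats were 18 weeks old according to the labels and were killed 1 day after the last dose. The protocol gives a duration of 12 weeks, whereas the description of rat 1 of either group says 12 weeks, that of rat 2 says 13, that of rat 3 says 14 and that of rat 4 says 15, so that the rat number and the labelled duration cannot be told apart. The question was how AA, given on a schedule that leads to kidney tumors, changed the miRNAs of the kidney.

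Like other miRNAs, miR-21 is transcribed as a long primary RNA, cut in the nucleus to a hairpin by Drosha and in the cytoplasm to a short duplex by Dicer. One strand of the duplex is usually kept by an Argonaute protein and guides it to mRNAs that pair with the seed, the bases near its 5′ end, whereas the other strand is mostly degraded. miR-21 is known as an oncogenic miRNA that is high in many tumors and in injured and fibrotic kidneys, with PDCD4 and PPARA among its known targets. Its transcription is known to be raised by STAT3 and AP-1, and its processing by TGF-beta signalling.

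The sequences of both arms are shown because the seed of each decides which mRNAs it can pair with. They were taken from RefSeq, where rno-miR-21 is named rno-miR-21-5p and rno-miR-21* is named rno-miR-21-3p, and are written 5′ to 3′ with the seed, bases 2 to 8, in capitals.
rno-miR-21: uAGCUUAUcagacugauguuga
rno-miR-21*: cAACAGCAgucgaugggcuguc
The hairpin they are cut from is shown with both arms in capitals, since the results below compare its ends.
Mir21 hairpin: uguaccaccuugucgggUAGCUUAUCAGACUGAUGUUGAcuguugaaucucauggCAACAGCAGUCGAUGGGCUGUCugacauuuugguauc

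In the GRCr8 assembly used by RefSeq the hairpin lies on the minus strand at chr10:71902600-71902691, with rno-miR-21 at chr10:71902653-71902674 and rno-miR-21* at chr10:71902615-71902636. The deposited table names no genome build, so these positions are those of RefSeq and not of the files. In the RefSeq gene table the hairpin lies outside the protein-coding genes, just past the 3′ end of Vmp1, a gene of the same strand whose product acts in autophagy, and its neighbours on the other side are Tubd1 and Rps6kb1. Both arms are 22 bases long, at bases 18 to 39 and 56 to 77 of the 92 bases of the hairpin, with 16 bases between them. The arms differ in base composition, with a GC content of 36.4% for rno-miR-21 and 59.1% for rno-miR-21*. In the predicted fold of lowest energy (-42.6 kcal/mol, RNAfold) 76 of the 92 bases are paired and 19 bases of rno-miR-21 pair with rno-miR-21*.

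No other entry among the 693 rat mature miRNA names of the RefSeq table has the seed of either arm. The most similar other mature sequence differs by 7 edits from rno-miR-21 (rno-miR-101a-5p) and by 8 edits from rno-miR-21* (rno-let-7f-2-3p). Neither arm has a near-identical copy in that table, and how the authors' counting treated reads that match several miRNAs is not given in the sources used here.

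The libraries held between 13412373 and 15616670 miRNA counts, with overlapping ranges. Normalized counts are counts divided by the median-of-ratios size factor of the library. No library repeated another, since the chi-square between rats of the same group was at least 393.9 per degree of freedom. A miRNA was called up- or down-regulated with an adjusted p under 0.05 in edgeR's quasi-likelihood test and a ratio of mean normalized counts over 1.5. By this rule 36 of the 620 miRNAs, or 5.81%, were higher after AA, and 20, or 3.23%, were lower. Counted over the 587 distinct names, without the lower-case spelling of the 33, they were 35 and 20, or 5.96% and 3.41%. With libraries scaled by their total counts, the split was 58 higher and 11 lower, and the median log2 fold change over the 620 miRNAs went from 0.05 to 0.31, a shift of 0.27. Relative to this median, the log2 fold change of rno-miR-21 was 1.89 with the size factors and 1.87 with total counts, and that of rno-miR-21* was 1.54 and 1.51. A scaling shifts all miRNAs by nearly the same amount, so that this likeness was set in advance and is no support. The same holds below where other medians are set against the median of all miRNAs on both scales. The rats are separate animals, so that the p-values measure the spread between rats. Reads copied by PCR are no independent molecules, and the intervals of shares given below cover counting error only.

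Both arms were higher after AA, by 3.83-fold for rno-miR-21 and 3.0-fold for rno-miR-21*, and in both the lowest AA-treated rat was above the highest control rat. The main arm was among the most abundant miRNAs of every kidney, whereas the star arm was counted about 3 orders of magnitude less often. The AA-treated rats also differed more from each other than the control rats did.

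Normalized counts of rno-miR-21 were 537794, 468877, 477796 and 421413 in control rats 1 to 4, and 2392189, 1453813, 1012261 and 2445707 in AA-treated rats 1 to 4. AA-treated rats 1 and 4 were high and close to each other, rat 3 was the lowest, and the groups did not overlap, since rat 3 still had 1.88 times the value of the highest control rat. The mean was 476470 ± 47789 (SD, n = 4) in controls and 1825992 ± 708355 (SD, n = 4) after AA. The log2 fold change was 1.94 with a standard error of 0.27, derived from the test statistic (edgeR quasi-likelihood test, adjusted p = 2.76e-04). The exact two-sided permutation test of the means gave p = 0.0286, the smallest value that the 70 labelings of 4 against 4 rats allow. Measured against the control mean, the single AA-treated rats were at 5.02-, 3.05-, 2.12- and 5.13-fold, so that the ratio of the means stood for rats that ranged from 2.12- to 5.13-fold.

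Normalized counts of rno-miR-21* were 365, 421, 456 and 390 in controls, and 1840, 1326, 749 and 976 after AA. Rat 1 was the highest AA-treated rat and rat 3 again the lowest, at 1.64-fold of the highest control rat. The mean was 408 ± 39.4 (SD, n = 4) in controls and 1223 ± 475 (SD, n = 4) after AA. Its log2 fold change was 1.58 with a standard error of 0.27 (edgeR quasi-likelihood test, adjusted p = 0.00184), and the exact two-sided permutation test again gave p = 0.0286, the smallest it can. AA-treated rat 4, the highest for the main arm, was the third highest for the star arm, at 2.39-fold of the control mean against 4.51-fold for rat 1. Without both rats numbered 4, which the descriptions label with the longest dosing, the log2 fold changes were 1.73 for rno-miR-21 and 1.67 for rno-miR-21*, and both stayed called. Since both arms were counted in the same libraries, the star arm is not a separate set of samples.

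**Figure D1:**
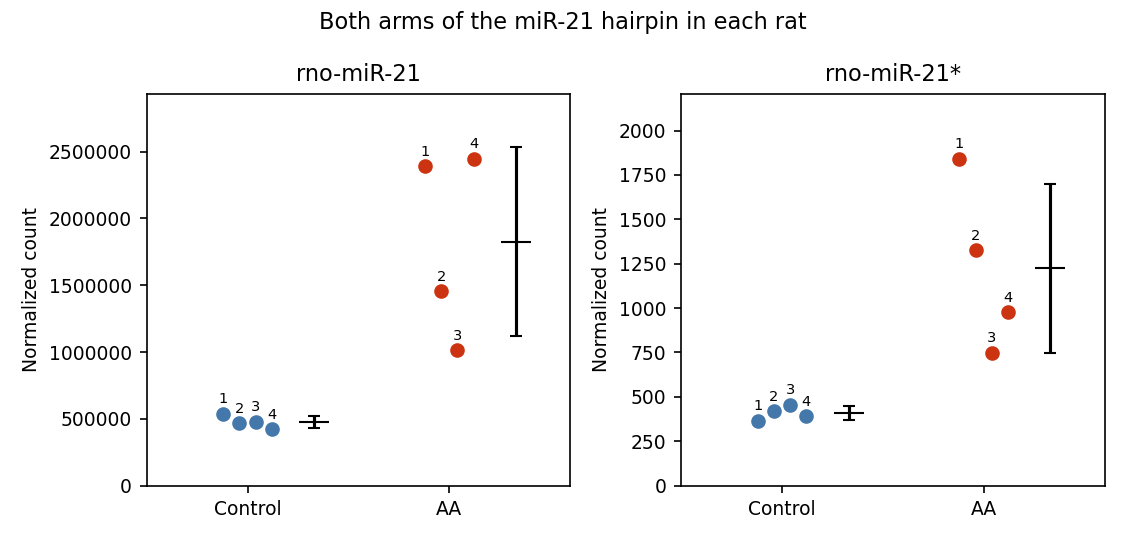
Normalized counts of rno-miR-21 (left) and rno-miR-21* (right) in each rat, with the rat number above each point and the mean with SD of the 4 rats of each group as a black bar; both axes start at 0. For both arms every AA-treated rat lies above every control rat, and rat 4 is the highest AA-treated rat for the main arm but not for the star arm.

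Both members were thus called up-regulated, where 5.81% of all miRNAs were. All 4 AA-treated rats were above all 4 control rats for 60 of the 620 miRNAs, or 9.68%, and both arms were among these. By p, rno-miR-21 ranked 11th and rno-miR-21* 17th of the 620, and by log2 fold change they ranked 56th and 64th from the top. Many miRNAs with larger fold changes had low counts, as the plot of level against change shows.

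**Figure D2:**
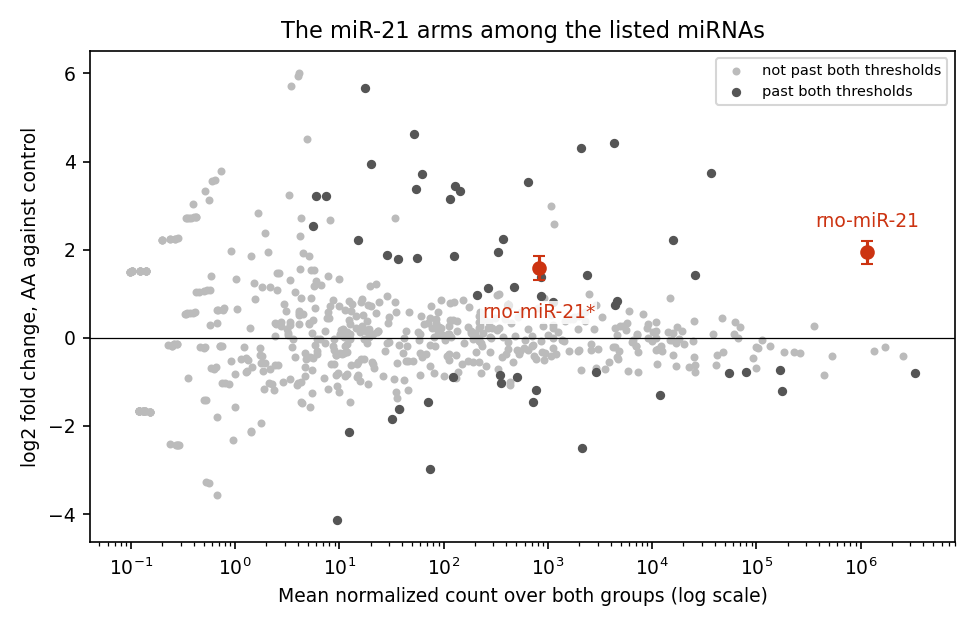
The log2 fold change of each of the 620 miRNAs against its mean normalized count over both groups, on a log scale. Dark points are past both thresholds (adjusted p under 0.05 and a ratio over 1.5), and both arms of miR-21 are in red with their standard errors. rno-miR-21 is the only miRNA with a mean over 100000 that is past both thresholds and higher after AA, and rno-miR-21* lies among miRNAs of moderate level.

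Of the 62 miRNAs with a mean normalized count of at least 10000, 4 were called higher and 6 lower after AA, or 6.45% and 9.68%, where 5.81% and 3.23% of all entries were. Their median log2 fold change was -0.19, or 0.04 with total counts, on both scales below the median of all miRNAs. The 4 were miR-34c, a p53-induced miRNA, at 13.4-fold, miR-146b at 4.69-fold, rno-miR-21 at 3.83-fold and miR-142-3p at 2.67-fold. In normalized counts rno-miR-21 gained 1349522, which was the largest gain of any miRNA. The next largest gain, that of let-7f, was 68142, and the largest loss was that of miR-378, which fell by 1801928.

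The share of rno-miR-21 in the miRNA counts needs no size factor, although it depends on all other miRNAs of the library. The mean share was 3.01% ± 0.392 (SD, n = 4) in controls and 13.7% ± 5.06 (SD, n = 4) after AA. In control rats 1 to 4 the shares were 3.39%, 2.91%, 3.25% and 2.51%, which made rno-miR-21 the 6th most abundant miRNA in 3 libraries and the 7th in the fourth. In AA-treated rats 1 to 4 they were 15.9%, 12.3%, 7.43% and 19.2%, with ranks 3, 3, 5 and 1. At this depth counting error was negligible beside the spread between rats, since the 95% Wilson interval for control rat 1 ran from 3.38% to 3.40%. The star arm rose from ranks 154 to 167 in the control libraries to ranks 111 to 138 in the AA-treated libraries. In CPM (counts scaled to 1000000 per library) it was at 23.0, 26.1, 31.0 and 23.2 in controls and at 122, 112, 55.0 and 76.8 after AA.

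**Figure D3:**
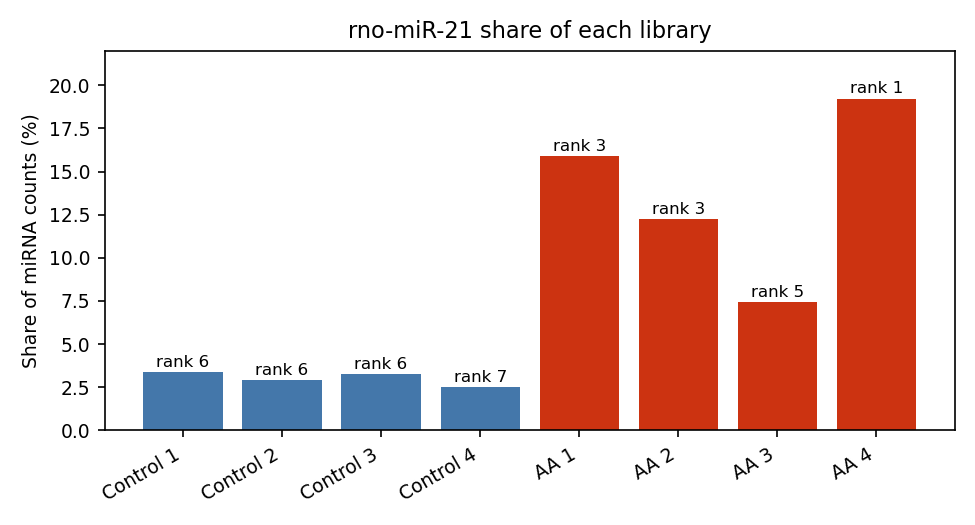
Share of rno-miR-21 in the miRNA counts of each library, in percent, with its rank among all miRNAs of that library above each bar; blue bars are control rats and red bars AA-treated rats. The control shares lie between 2.51% and 3.39% and the AA-treated shares between 7.43% and 19.2%.

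The most abundant miRNA of a library differed between the groups. miR-378, which lies within the gene of the metabolic coactivator PGC-1beta, was the most abundant in the 4 control libraries, with 23.3% to 29.0% of the counts, and in AA-treated rat 3, with 21.2%. miR-143, a miRNA of smooth muscle and other mesenchymal cells, was the most abundant in AA-treated rats 1 and 2, with 17.7% and 18.2%. In AA-treated rat 4 it was rno-miR-21. AA-treated rat 3, the library in which miR-378 remained first, was also the AA-treated rat with the lowest value of both miR-21 arms.

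Ratios within a library to 4 of the most abundant miRNAs, chosen after their values were seen, gave the same direction without any normalization. The ratio of rno-miR-21 to miR-378 was 0.0867 to 0.140 in controls and 0.350 to 1.07 after AA, a 6.68-fold difference of the means. miR-378 itself was lower after AA (log2 fold change -0.79, edgeR adjusted p = 0.0173), although not past the threshold with total counts or without control rat 1 or AA-treated rat 2 (adjusted p up to 0.0537 without 1 rat), so that this ratio joins both differences. The ratio to miR-30a, a miRNA of the tubular epithelium that was not called (log2 fold change -0.22, edgeR adjusted p = 0.496), was 0.216 to 0.273 in controls and 0.535 to 1.69 after AA, a 4.59-fold difference. Against miR-143 and miR-10a-5p the means differed 5.00- and 5.21-fold. These references were not called, with log2 fold changes of -0.41 and -0.30 (edgeR adjusted p = 0.200 and 0.460), and these differences enter the ratios too. For rno-miR-21* the 4 differences, in the order miR-378, miR-143, miR-30a and miR-10a-5p, were 5.19-, 3.86-, 3.56- and 3.83-fold. In all 8 ratios the groups did not overlap (exact two-sided permutation test, p = 0.0286 for each, the smallest it can give). All 4 references had negative log2 fold changes with the size factors, and the groups already did not overlap for either arm. The 8 ratios are thus no separate support, and how many other miRNAs separate by such ratios was not counted.

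The spread between rats was wider after AA for both arms. The coefficient of variation of the normalized counts was 10.0% in controls and 38.8% after AA for rno-miR-21, and 9.67% and 38.8% for rno-miR-21*. The highest rat had 1.28 times the lowest in the control group and 2.42 times in the AA-treated group for the main arm, and 1.25 and 2.46 times for the star arm. Among the 62 abundant miRNAs the coefficient of variation of rno-miR-21 ranked 49th in controls, where the median was 17.5%, and 7th after AA, where the median was 21.4%. No test of the difference in spread was made with 4 rats per group.

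The ratio of both arms compares products of the same hairpin in the same library and needs no size factor. rno-miR-21 was counted 1474, 1115, 1048 and 1081 times as often as rno-miR-21* in control rats 1 to 4, and 1300, 1096, 1351 and 2505 times as often in AA-treated rats 1 to 4. Rat 4 was the highest of the AA-treated rats and the other 3 lay within the range of the control rats. The star arm made up 0.0678% of the counts of the hairpin in control rat 1 (95% Wilson interval 0.0611% to 0.0753%) and 0.0399% in AA-treated rat 4 (0.0377% to 0.0422%). In the remaining 6 rats it made up 0.0740% to 0.0954%. On the log2 scale the ratio was 10.19 ± 0.23 (SD, n = 4) in controls and 10.53 ± 0.52 (SD, n = 4) after AA.

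The difference in the arm ratio was 0.34 on the log2 scale with a standard error of 0.25, and it did not pass the threshold (limma over 114 hairpins, adjusted p = 0.527; exact two-sided permutation test for this hairpin, p = 0.314). A 95% interval of the difference was taken from the pooled variance of this hairpin alone (t distribution), and not from limma. It ran from -0.35 to 1.04, which is a 0.784- to 2.06-fold change of the ratio. A shift of up to 2.06-fold toward the main arm could thus not be told from none at this spread. Without AA-treated rat 4 the difference was 0.09 (limma adjusted p = 0.851). Across the 114 hairpins with at least 10 counts on average in each arm, 2 passed the threshold, or 1.75%, and 23 had an unadjusted p under 0.05. These 2 were miR-152, whose log2 ratio fell by 1.33, and miR-322, whose log2 ratio rose by 1.25 (limma adjusted p = 0.0150 for each), and neither passed without control rat 2, control rat 3 or AA-treated rat 2 (limma adjusted p = 0.0575, 0.0664 and 0.0618).

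The hairpin of miR-21 was one of the more one-sided in the kidney. In the control rats its absolute log2 arm ratio ranked 11th of the 114 hairpins, whose median was 5.56. In 21 hairpins the starred or 3p arm was the higher one. By absolute size a total of 51 hairpins differed more between the groups than miR-21 did, which put it near the middle of the 114. The median of the signed differences over all 114 was 0.01, so that rises and falls cancel in it.

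**Figure D4:**
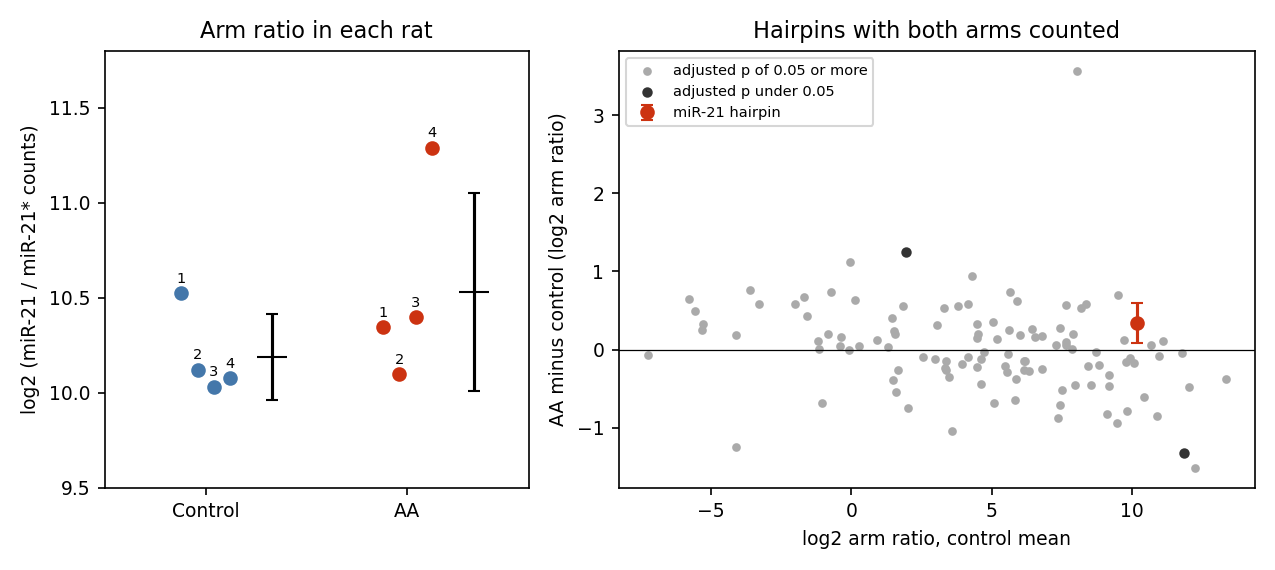
Left, the log2 ratio of rno-miR-21 to rno-miR-21* counts in each rat, with rat numbers and the mean with SD as a black bar (the axis does not start at 0). Right, for the 114 hairpins with both arms counted, the difference of the log2 arm ratio (AA minus control) against its mean in controls; the miR-21 hairpin is in red with its standard error, and the 2 hairpins past the threshold are dark. Rat 4 lies above the other AA-treated rats, and the miR-21 hairpin lies toward the one-sided end with a difference that is not past the threshold.

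The miRNAs whose pattern over the 8 rats was most like that of rno-miR-21 were ranked as a description, with no test. For each of the 239 other miRNAs with a mean normalized count of at least 100, the log2 normalized counts were centred on the control mean, and the root mean square difference from the profile of rno-miR-21 over the 8 rats was taken. The 5 closest were miR-146b at 0.22, miR-130b at 0.30, miR-132 at 0.35, rno-miR-21* at 0.43 and miR-142-3p at 0.44 log2 units. The points share their libraries and size factors, and a miRNA with a like group difference comes out close by this measure.

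miR-146b, which dampens Toll-like receptor signalling, was the closest. Its normalized counts were 7093, 5206, 5072 and 5105 in controls and 38850, 19854, 12297 and 34391 after AA. As with miR-21, rats 1 and 4 were high, rat 2 was between and rat 3 the lowest, with the order of rats 1 and 4 exchanged. The log2 fold change was 2.23 (edgeR adjusted p = 2.85e-04). miR-130b had the order of AA-treated rats seen for rno-miR-21, at 720, 599, 404 and 757 normalized counts in rats 1 to 4 against 130 ± 17.5 (SD, n = 4) in controls, a log2 fold change of 2.25 (edgeR adjusted p = 6.37e-05).

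miR-132, which is induced through CREB, rose from 136 ± 40.3 to 526 ± 81.7 (SD, n = 4 per group), a log2 fold change of 1.95 (edgeR adjusted p = 2.76e-04). It differed from rno-miR-21 in AA-treated rats 2 and 3, which changed places. miR-142-3p, a miRNA of blood-derived cells, had normalized counts of 32077, 38203, 26580 and 53269 in AA-treated rats 1 to 4, against 14047 ± 1876 (SD, n = 4) in controls, a log2 fold change of 1.42 (edgeR adjusted p = 7.92e-04). In miR-142-3p rat 4 was again the highest AA-treated rat and rat 3 the lowest, but rat 1 was lower than rat 2.

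**Figure D5:**
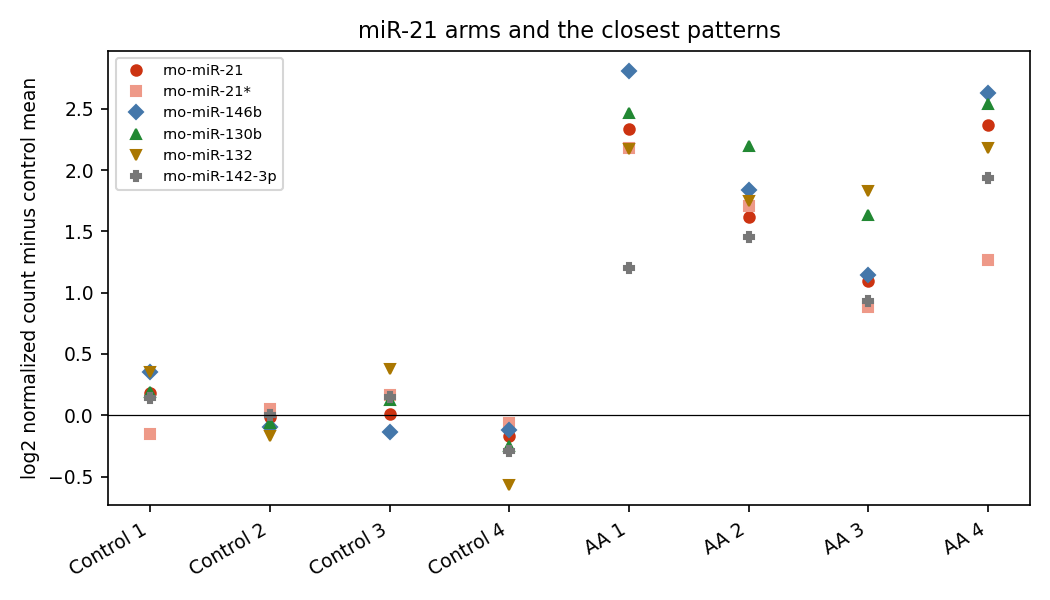
The log2 normalized count minus the mean of the 4 control rats, for both miR-21 arms and the other 4 of the 5 closest patterns, in each rat. All 6 miRNAs lie between 0.88 and 2.80 after AA, AA-treated rat 3 is the lowest for 5 of the 6, and rno-miR-21* lies below the others in AA-treated rat 4.

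miRNAs known to act with miR-21 or to be induced by the same factors were counted in lists without the miR-21 arms. These lists were chosen with earlier results of these data known. The list of miRNAs known to be induced by NF-kB, STAT3 or AP-1 had 7 measured members, of which 5 rose and none fell, where 5.81% and 3.23% of all entries did: miR-146b, miR-132, miR-212, miR-221 and miR-222. The median log2 fold change of the list was 0.82, against 0.05 over all 620 miRNAs. Its members are not independent of each other or of the lists below. miR-132, given above as induced through CREB, and miR-212 also stand in the renal fibrosis list. The oncogenic list also holds miR-221 and miR-222. miR-212, which shares a primary transcript with miR-132, rose from 24.6 ± 7.23 to 86.0 ± 17.8 (SD, n = 4 per group; log2 fold change 1.80). miR-221 and miR-222, a pair that represses the cell cycle inhibitor p27, rose from 812 ± 162 to 1436 ± 180 and from 309 ± 44.8 to 522 ± 49.4 (SD, n = 4 per group; edgeR adjusted p = 0.0253 and 0.0390). miR-222 did not pass when any 1 of the 8 rats was left out (adjusted p from 0.0573 to 0.153), and miR-221 did not without control rat 2, 3 or 4 or AA-treated rat 3 (up to 0.111), so that leaving out 1 rat left 3 or 4 of the 5. miR-146a, which has the seed of miR-146b but another gene, was at 21102 ± 2938 and 19140 ± 1371 (SD, n = 4 per group; log2 fold change -0.14, or 0.12 with total counts; edgeR adjusted p = 0.625).

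Of the 9 miRNAs known from renal fibrosis and TGF-beta signalling, 2 rose (4 without AA-treated rat 1) and none fell, where 5.81% of all entries rose. These were miR-132 and miR-212, which come from the same primary transcript, and the median log2 fold change of the list was 0.43. Its most abundant member, miR-192, was at 567860 ± 374743 in controls and 316369 ± 86814 after AA (SD, n = 4 per group; edgeR adjusted p = 0.168), and control rat values ran from 328824 to 1124303. Of the 14 antifibrotic and epithelial miRNAs none rose and 1 fell, shares near the 5.81% and 3.23% of all entries: miR-204, a miRNA of the tubular epithelium, from 447 ± 103 to 247 ± 31.9 (SD, n = 4 per group; log2 fold change -0.86, edgeR adjusted p = 0.0357). Its call was lost without control rat 1, 2 or 4 or AA-treated rat 1 or 3 (adjusted p up to 0.0883), and with TMM or total-count scaling. The median of this list was -0.18, or 0.08 with total counts, on both scales below the median of all miRNAs (0.05 and 0.31). Its abundant members miR-30a, miR-30c, miR-30d and miR-30e had log2 fold changes of -0.22, -0.18, -0.32 and -0.42 and were not called; with total counts those of miR-30a and miR-30c were 0.03 and 0.08. Of the 12 measured oncogenic miRNAs 3 rose and none fell, where 5.81% of all entries rose and 3.23% fell, with a median log2 fold change of 0.44. They were miR-221, miR-222 and miR-18a, a member of the miR-17-92 cluster, from 295 ± 58.9 to 659 ± 188 (SD, n = 4 per group; log2 fold change 1.16, edgeR adjusted p = 0.0123). miR-18a was called in every alternative, and the count for this list was 1 without control rat 2, 3 or 4 or AA-treated rat 3.

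Markers of cell types were counted beside these results, since in whole kidney fewer cells of a type and less RNA per cell cannot be told apart. Of the 4 measured leukocyte markers 2 rose, where 5.81% of all entries did: miR-142-3p, given above, and miR-223, a miRNA of myeloid cells, from 590 ± 45.5 to 1147 ± 341 (SD, n = 4 per group; edgeR adjusted p = 0.0231). miR-223 was not called without control rat 1, 2 or 3 (adjusted p up to 0.0747), whereas miR-142-3p was called in every alternative. The summed leukocyte markers ranged from 13715 to 17802 normalized counts in controls and from 29485 to 56648 after AA, a 2.51-fold difference of the means. miR-142-3p alone made up 86.1% of the mean sum in controls and 91.8% after AA. The other arm of its hairpin, miR-142-5p, was at 815 ± 157 and 975 ± 452, and miR-150, a miRNA of lymphocytes, at 871 ± 95.1 and 1252 ± 148 (SD, n = 4 per group; edgeR adjusted p = 0.632 and 0.133). The part of these markers in the rise of miR-21 was not tested. None of the 5 fibroblast and mesenchyme markers was called, where 5.81% of all entries rose and 3.23% fell. Their sum, which miR-143 dominated, ranged from 2559048 to 3549718 in controls and from 1973055 to 2676497 after AA. The defining fibroblast markers miR-199a-3p and miR-214 were at 4830 ± 367 and 7313 ± 1302, and at 330 ± 72.6 and 445 ± 111 (SD, n = 4 per group; edgeR adjusted p = 0.0670 and 0.322). Without AA-treated rat 1 a total of 2 of the 5 markers were called higher, where 35 of all miRNAs were.

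The tubular markers other than miR-204 had mean normalized counts of at least 10000 in both groups, whereas miR-204 was at 447 and 247. Of the 5 tubular markers 1 fell, where 3.23% of all entries did: miR-204, with the losses of its call given above. The sum of the 5, which miR-30a dominated, ranged from 2170229 to 3151719 normalized counts in controls and from 1546865 to 2255910 after AA. miR-194, which defines the list together with miR-192, was at 32436 ± 3350 and 19030 ± 5999 (SD, n = 4 per group; edgeR adjusted p = 0.0515). It was called without AA-treated rat 1 (edgeR adjusted p = 0.0160), but not when any other single rat was left out (adjusted p up to 0.121). Neither endothelial marker and neither of the 2 measured red cell markers was called, where 5.81% of all entries rose and 3.23% fell. The summed endothelial markers, mainly miR-126, ranged from 124106 to 164003 in controls and from 88876 to 137262 after AA, and the summed red cell markers from 6910 to 11910 and from 2172 to 8116. No defining marker was at 0 in any rat.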

How the data were processed

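Small RNA of 22 to 30 nt from 1 kidney sample of each of 8 rats had been sequenced on a Genome Analyzer II. The authors trimmed the reads and assigned them to rat miRNAs of miRBase release 16 with miRanalyzer at its default parameters, and the submitters' processing notes name CASAVA 1.7. The deposited values are raw whole-number counts, 1 for each rat and mature miRNA. Groups came from the sample titles. Upper- and lower-case spellings of a name were kept as separate entries.

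edgeR 4.0.16 in R 4.3.3 was run with median-of-ratios size factors and its quasi-likelihood test over all 620 miRNAs, without covariates and with Benjamini-Hochberg adjustment. The thresholds were an adjusted p of 0.05 and a ratio of 1.5. edgeR gives no standard error, so those of log2 fold changes were derived as the absolute change divided by the square root of the F statistic. Arm ratios were compared with limma 3.58.1 on log2 ratios with 0.5 added to each count, over the 114 of 205 listed arm pairs with at least 10 mean counts in each arm. Likeness used log2 values with a pseudocount of 1. Permutation tests were exact and two-sided. The edgeR and limma tests were run on simulated counts with known changes and the same dispersion in both groups. The wider spread of both miR-21 arms after AA was thus not covered by the simulation. Folding used RNAfold 2.7.2, figures matplotlib 3.10.9, and other steps pandas 2.3.3 and scipy 1.17.1 in Python 3.11.15. The alternatives were other scalings, filters and tools, DESeq2 1.42.0 and limma-voom among them, a replicate block, the labelled weeks as a covariate, and leaving out rats.

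The named miRNAs were both arms, the 5 closest patterns, miRNAs sharing a seed with an arm, up to 4 called members of each list by p, list members with a mean of at least 100000, and the most abundant miRNA of each library. miR-34c, let-7f, miR-10a-5p, miR-126*, miR-142-5p, miR-146a, miR-152, miR-199a-5p and miR-322 were named after their values were seen. The members and lists were chosen with earlier results of these data known. mRNA and protein data were not analysed here.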

Additional observations from a re-analysis of the deposited data

Results flagged for a closer look

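Among the 18 groups of 4 rats examined, of which chance alone flags about 1 in 20, the normalized count of miR-146b in control rat 1, at 7093, lay far from those of the other 3 control rats, at 5072 to 5206.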

How the results depend on the processing

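rno-miR-21 and rno-miR-21* kept their direction and their call in all 19 alternatives that refitted every miRNA. They kept their direction in 4 ratios to abundant miRNAs as well, which were chosen after seeing the data and give no adjusted p (exact permutation test, unadjusted p = 0.0286 for each). The references had negative log2 fold changes themselves, so that these ratios are no separate support. The log2 fold change ranged from 1.73, without both rats numbered 4, to 2.74, as a ratio to miR-378, for rno-miR-21, and from 1.32 to 2.38 for rno-miR-21*; adjusted p reached 0.00332 and 0.00957 at most. The difference in arm ratio stayed past no threshold in its 14 alternatives, from 0.05 to 0.49. Deviations of rats with the same number correlated at -0.01, 0.14, 0.12 and 0.34 over 370 miRNAs. Since 1 of the 4 was not over 0.1, and not every rat correlated best with its own number, the numbers were not taken to pair the rats, although rats of the same number also share a labelled duration. With the replicate block the log2 fold changes were 1.85 and 1.51 (edgeR adjusted p = 9.55e-04 and 0.00360), the arm difference 0.34, and the calls 45 higher and 29 lower. A term for the labelled weeks gave 39 and 28 calls.

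Total counts gave 58 higher and 11 lower calls, and total counts without the miR-21 arms 97 and 10. Leaving out 1 rat gave 24 to 44 higher and 13 to 25 lower calls, the fewest lower ones without control rat 1. Without miR-378 in the total, the mean control share of rno-miR-21 was 4.11%. Of the 5 closest patterns, 2 remained with a minimum of 1000 counts and 3 with a minimum of 10. The minimum of 1000 itself removed miR-130b, miR-132 and rno-miR-21*, whose means over the 8 rats lay below it. Only miR-146b and miR-142-3p could remain, so that this drop was set by the filter and says nothing on the ranking.

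For the lists, with total counts, first with and then without the miR-21 arms, the calls were 4 and 5 higher for renal fibrosis, 5 and 7 higher for oncogenic miRNAs, 2 and 3 higher for fibroblast markers, 0 and 1 higher and 0 lower for antifibrotic miRNAs, and 0 lower for tubule markers. Over all miRNAs these scalings gave 58 and 97 higher and 11 and 10 lower calls. TMM and leaving out both rats numbered 4 also gave 0 lower for the antifibrotic and tubule lists. Over all miRNAs they gave 16 and 14 lower calls. The replicate block gave 4 higher for renal fibrosis, 2 higher for fibroblast markers and 2 lower for tubule markers. Over all miRNAs it gave 45 higher and 29 lower. Upper quartile scaling gave 3 higher for the NF-kB, STAT3 and AP-1 list, 1 higher for oncogenic miRNAs and 2 lower for tubule markers. Over all miRNAs it gave 30 higher and 27 lower. DESeq2, the filter on low counts and the weeks term each gave 1 higher fibroblast marker and 2 lower tubule markers, and limma-voom and robust moderation 2 lower tubule markers. Over all miRNAs these alternatives gave 32 to 44 higher and 22 to 30 lower calls. Leaving out 1 rat gave 2 to 4 higher for renal fibrosis, 0 to 1 lower for antifibrotic, 3 to 4 higher for NF-kB, STAT3 and AP-1, 1 to 2 higher for oncogenic, 1 to 2 higher for leukocyte, 0 to 2 higher for fibroblast and 0 to 1 lower for tubule members. Over all miRNAs leaving out 1 rat gave 24 to 44 higher and 13 to 25 lower calls. The cause of these changes in the lists was not tested. Depth limits rno-miR-21* more than rno-miR-21, since it had between 319 and 1699 counts per library.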
